A study of Mus musculus with 127 samples.

Results

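Flvcr-deleted marrow cells of the lowest Ter119 class, class A, were compared with wild-type cells of the same class. The class label of each cell chose the members: 9 Flvcr-deleted cells labelled DA1a to DA9a and 6 wild-type cells labelled WA1 to WA6, which is 15 of the 127 cells measured. Ter119 is a surface antigen of maturing red cells, and each cell was imaged for it after capture in a microfluidic system. The Flvcr-deleted cells carried the genotype Flvcr deleted and the wild-type cells the genotype wild type, both on the C57BL/6J background, from mouse marrow and labelled as erythroblasts. No treatment is named for either group. The sources used here state neither the age of the mice nor the promoter or Cre that deleted Flvcr. A further 9 Flvcr-deleted class A cells carry the suffix d, whose meaning the labels do not state, and they appear only as values beside the others. Each value is the RPKM of a gene in a cell, the read number scaled to transcript length and sequencing depth, taken as log2(RPKM + 1). This scale understates differences of genes near 0. The labels name no animal, so each genotype is 1 sample. No test was therefore possible, and an SD, always taken over cells, speaks for these cells only. The codes in the labels begin SCP2-KO for every Flvcr-deleted cell and SCP3-WT for every wild-type cell. What SCP2 and SCP3 stand for is not stated, and whatever it is cannot be told apart from genotype.

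Flvcr, also called Flvcr1, is a membrane transporter known for exporting heme. Heme is the iron-containing ring of hemoglobin. In red cell precursors it is made in step with globin, it relieves a brake on globin translation, and free heme is toxic. GATA1 and KLF1 are transcription factors that switch on globin, heme synthesis and red cell membrane genes as these precursors mature. Loss of the exporter in mice is known to cause a severe anemia, and the study's title sets heme beside GATA1 as a regulator of this differentiation.

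The results turn on genes of the red cell program, which were high in most Flvcr-deleted cells, and on protease genes of basophils, which were high in part of the wild-type cells. The promoters of 3 of the red cell genes, Hba-a1 and Hbb-bt (globins) and Rhag (a membrane channel protein), and of 2 protease genes, Prss34 and Mcpt8, are shown from RefSeq on build GRCm38.p6, 250 bases before to 50 after the start of the gene. Capitals mark matches to a GATA motif (AGATAA, or with a final G AGATAG, or with T first TGATAA, or with both changes TGATAG) and to the motif CACCC, the core of KLF1 sites, on either strand. The windows are chr11:32283422-32283721 on the plus strand for Hba-a1, chr7:103813874-103814173 on the minus strand for Hbb-bt, chr17:40810899-40811198 on the plus strand for Rhag, chr17:25298144-25298443 on the plus strand for Prss34 and chr14:56085148-56085447 on the minus strand for Mcpt8.
Hba-a1: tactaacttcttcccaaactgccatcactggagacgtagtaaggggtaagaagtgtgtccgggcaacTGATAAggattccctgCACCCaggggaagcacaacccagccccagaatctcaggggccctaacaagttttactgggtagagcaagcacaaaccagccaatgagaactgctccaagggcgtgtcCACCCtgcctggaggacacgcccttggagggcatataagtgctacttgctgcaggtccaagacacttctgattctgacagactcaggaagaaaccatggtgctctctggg
Hbb-bt: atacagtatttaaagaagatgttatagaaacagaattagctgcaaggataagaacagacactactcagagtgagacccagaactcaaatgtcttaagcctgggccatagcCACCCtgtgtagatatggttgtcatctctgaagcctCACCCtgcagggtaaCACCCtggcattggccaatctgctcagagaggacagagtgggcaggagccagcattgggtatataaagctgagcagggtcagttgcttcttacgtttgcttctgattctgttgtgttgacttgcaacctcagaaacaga
Rhag: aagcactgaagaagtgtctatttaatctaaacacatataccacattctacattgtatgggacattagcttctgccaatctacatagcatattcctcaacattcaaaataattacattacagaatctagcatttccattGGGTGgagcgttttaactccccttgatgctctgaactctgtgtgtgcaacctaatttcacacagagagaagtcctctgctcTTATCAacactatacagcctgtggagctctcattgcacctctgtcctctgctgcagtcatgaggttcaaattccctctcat
Prss34: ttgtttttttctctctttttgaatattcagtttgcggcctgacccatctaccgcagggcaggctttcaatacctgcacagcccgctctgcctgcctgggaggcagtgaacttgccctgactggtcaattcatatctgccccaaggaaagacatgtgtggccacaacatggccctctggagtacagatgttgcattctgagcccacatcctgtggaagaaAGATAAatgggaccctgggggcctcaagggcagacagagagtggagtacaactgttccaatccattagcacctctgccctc
Mcpt8: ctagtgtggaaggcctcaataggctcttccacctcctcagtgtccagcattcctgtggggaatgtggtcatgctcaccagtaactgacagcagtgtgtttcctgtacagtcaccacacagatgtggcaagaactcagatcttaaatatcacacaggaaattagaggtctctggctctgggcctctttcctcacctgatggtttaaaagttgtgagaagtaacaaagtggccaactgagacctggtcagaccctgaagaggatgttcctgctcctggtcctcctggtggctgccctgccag

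The Hba-a1 window held 1 GATA match, at position -183 from the start, and 2 CACCC matches, at -167 and -60. The Hbb-bt window held 3 CACCC matches, and the Rhag window held 1 match of each kind, the GATA match at -31. The Prss34 window also held a GATA match at -31, and the Mcpt8 window held no match. Of 32851 promoters of the same length, 29.8% held a GATA match and 57.5% a CACCC match, so neither motif is rare in such windows. A match describes letters only.

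The groups differed in depth. Detection of a gene means an RPKM of at least 1 in that cell. Flvcr-deleted cells had 796 to 3069 detected genes (median 1381) and wild-type cells had 2384 to 4047 (median 2878). Reads, estimated by the step that 1 read makes in the values, were 0.716 to 3.48 M (median 1.57 M) in Flvcr-deleted cells and 2.01 to 3.88 M (median 2.66 M) in wild-type cells. The relative Ter119 values of the groups overlapped, at 0.132 to 0.287 (median 0.215) in Flvcr-deleted cells and 0.0838 to 0.261 (median 0.145) in wild-type cells. The suffix d cells had 169 to 864 detected genes (median 343). Intervals given for shares of cells are exact (Clopper-Pearson) 95% intervals and cover counting error only. The targeted gene, listed as Mfsd7b, was detected in 0 of 9 Flvcr-deleted cells (up to 33.6%) against 1 of 6 wild-type cells, WA5, at a log2 level of 1.62, so it was too rarely detected to check the genotype.

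The label erythroblast was checked against globin share, which set most Flvcr-deleted cells apart from the wild-type cells, and against erythroid markers, by which the groups overlapped. Globin transcripts made up 60, 17.7, 67.6, 1.1, 89.7, 88, 88, 3.63 and 0.0337% of summed RPKM in DA1a to DA9a, against 0.199, 0.0101, 0.0171, 0.173, 0.0108 and 0.00115% in WA1 to WA6. All Flvcr-deleted cells except DA9a lay above every wild-type cell. Near-identical globin genes can be assigned the same reads, which raises these shares. At least 3 of 15 erythroid markers were found in all 9 Flvcr-deleted cells (100%, 66.4 to 100%) and in 5 of the 6 wild-type ones (83.3%, 35.9 to 99.6%), with 4 to 12 markers (median 9) detected in Flvcr-deleted cells and 2 to 7 (median 5) in wild-type cells. In WA1 to WA5, with 2 to 5 of these markers each, Hba-a1 reached at most 8.39 and Hbb-b1 at most 4.94.

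Wild-type class A held cells of unlike content. WA1, WA3 and WA5 each had 6 of 14 eosinophil, basophil and mast cell markers. In these 3 cells Prss34, a basophil protease, stood at log2 levels of 16.62, 15.58 and 15.95, and Mcpt8, another basophil protease, at 14.09, 13.57 and 14.15. Prss34 and Mcpt8 together took 33.1, 23.3 and 24.3% of summed RPKM there. Fcer1a, a chain of the IgE receptor, was at 4.2, 9.57 and 10.67, and Hdc, the enzyme that makes histamine, at 6.27, 6.79 and 7.60. These cells also had Mpo, the myeloperoxidase of primary granules, at 11.16, 9.75 and 11.44.

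WA2 and WA4 were the wild-type cells with the most monocyte markers and had none of the 14 basophil and mast cell markers. WA2 had 12 of 24 monocyte and macrophage markers, among them Csf1r, the receptor for the macrophage growth factor, at 6.10, Ly6c2 at 9.08, and Ccr2, a chemokine receptor of monocytes, at 7.58. Lyz2, a lysozyme of phagocytes, was at 8.43 in WA2. WA4 had 6 of the 24, led by Ly86 at 8.89 and Mpeg1 at 7.24, and had Irf8, a transcription factor of monocytes and dendritic cells, at 6.59. Siglech, a receptor of plasmacytoid dendritic cells, was at 7.33 in WA4 and 2.04 in WA2. Lyz2 was at 0 in WA4. Part of the monocyte list was found in WA1, WA3 and WA5 as well, with 2, 4 and 3 of the 24 markers. Fcgr3, an Fc receptor that basophils and mast cells also carry, was at 8.75, 6.35 and 7.91 in WA1, WA3 and WA5 and at 0 in WA2, WA4 and WA6. Ly6c2, Ccr2, Ly86, Mpeg1, Fcgr3, Irf8 and Siglech are given as members of the lists and were singled out after their values were seen.

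WA6 was the wild-type cell with genes of the erythroid program, though Hbb-b1 was at 0.65. Its levels were 12.39 for Car1 and 11.65 for Car2, carbonic anhydrases of the red cell lineage, 6.41 for Gata1, 4.88 for Klf1 and 7.23 for Rhd, a Rh blood group protein of the red cell surface. It had 0 of 14 basophil and mast cell markers and 0 of 24 monocyte markers, and Tyrobp and Ptprc, the pan-leukocyte antigen CD45, were at 0. Its level of Kit, the stem cell factor receptor of early progenitors, was 2.92. Kit was detected in 2 of 6 wild-type cells and was highest in WA5, so it does not set WA6 apart.

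Among Flvcr-deleted cells, DA9a stood apart. It had Mcpt8 at 10.55, Cpa3, a mast cell and basophil protease, at 9.16, Ms4a2 at 3.03 and Mpo at 8.38, with Prss34 and Fcer1a at 0, and 6 of 19 granulocyte markers. DA4a and DA8a were low in globin, with Car2 at 11.20 and 10.74 and Car1 at 9.03 and 10.69, and had 0 monocyte markers each. DA1a, DA2a, DA3a, DA5a, DA6a and DA7a were rich in globin. The cells low in globin were not those with the least Ter119: DA8a and DA9a had Ter119 values of 0.286 and 0.287, the highest of the 9, and DA1a had 0.132, the lowest.

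**Figure D1:**
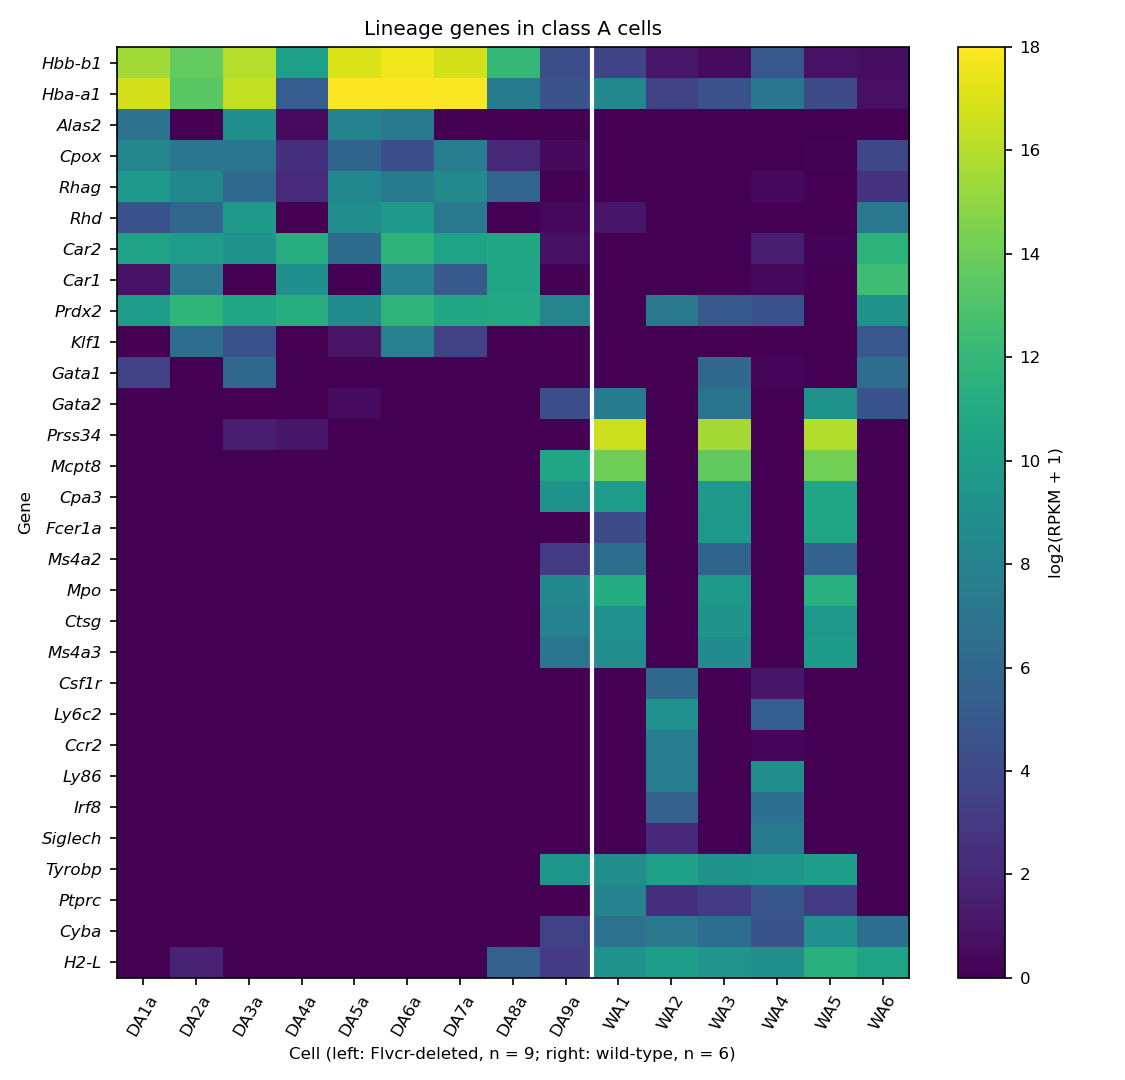
Log2(RPKM + 1) of 30 lineage genes (rows) in each of the 15 class A cells (columns), with Flvcr-deleted cells left of the white line and wild-type cells right of it. Hbb-b1 is bright in all Flvcr-deleted cells but DA9a, the basophil genes in WA1, WA3 and WA5, the monocyte genes in WA2 and WA4, and Car1 and Car2 in WA6.

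Cells with at least 3 detected markers of another lineage were also counted. For granulocyte markers they were 1 of 9 (Flvcr-deleted, 11.1%, 0.281 to 48.2%) and 4 of 6 (wild type, 66.7%, 22.3 to 95.7%). Csf3r had 0 to 1.88 in Flvcr-deleted and 0.82 to 1.51 in wild-type cells and Cxcr2 had 0.94 to 6.16 and 1.76 to 4.21, and without this pair the counts were 1 of 9 and 3 of 6 (50%, 11.8 to 88.2%). For monocyte and macrophage markers they were 0 of 9 (up to 33.6%) and 4 of 6, namely WA2 to WA5. With a marker counted only at an RPKM of at least 10 they were 0 of 9 and 2 of 6 (33.3%, 4.33 to 77.7%), WA2 and WA4. For eosinophil, basophil and mast cell markers they were 1 of 9 and 3 of 6, and 0 of 9 and 3 of 6 at an RPKM of at least 10. For markers of B cells, T and NK cells, dendritic cells, megakaryocytes, stem cells, and endothelium and stroma they were 0 of 9 (up to 33.6%) and 0 of 6 (up to 45.9%). The mean of the wild-type group is thus a mean over cells of unlike content, and the value in WA6 is given beside the results that bear on this.

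Over all genes the cells sorted this way in part. Spearman's rho over the 3190 kept genes described below is given as a description, since cells of a group share a code prefix in the labels and the groups differed in depth. It was highest for DA8a with WA6, at 0.46, across genotypes. DA9a was at 0.31 with WA1 and WA5 and at 0.30 with WA3, but also at 0.31 with the globin-rich DA6a. The other Flvcr-deleted cells were nearest to another Flvcr-deleted cell, at 0.37 to 0.44. WA1, WA3 and WA5 were nearest to each other, at 0.33 to 0.37, and WA2 to WA4, at 0.35. Over pairs, the median rho was 0.31 among Flvcr-deleted cells (36 pairs), 0.28 among wild-type cells (15 pairs) and 0.18 between the groups (54 pairs).

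Lower levels in Flvcr-deleted cells were the rule. Of 3190 genes with a mean log2(RPKM + 1) of at least 1 over the 15 cells, called kept genes, 346 (10.8%) had a mean at least 1 higher in Flvcr-deleted cells and 1714 (53.7%) a mean at least 1 lower. Counts of higher and lower list members below stand against these 2 shares. Differences are always means of log2(RPKM + 1) in Flvcr-deleted minus wild-type cells. The median difference was -1.16 (quartiles -2.35 and 0.04), while the median SD over cells within groups was 2.38, so a difference of 1 is small beside the spread of single cells. Set against the median gene, 933 genes (29.2%) lay at least 1 above it and 910 (28.5%) at least 1 below. The split depended on scaling: higher genes were 16.8% of called genes as deposited and 40.2% after quantile normalization (724 higher and 1077 lower). Without WA6 the counts were 457 higher and 1519 lower, and without DA9a they were 371 and 1715. Fewer detected genes in Flvcr-deleted cells (median 1381, against 2878) move with the excess of lower genes, and their part in it was not tested.

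The ranges of the groups did not overlap for 2 higher genes (0.0627% of kept genes) and 38 lower genes (1.19%). The higher ones were the ribosomal protein genes Rps29 and Rpl37. Of the lower ones, 14 were H2 genes, the mouse major histocompatibility family. In addition, 151 kept genes were at 0 in all 9 Flvcr-deleted cells and 35 were at 0 in all 6 wild-type cells. Such genes passed the filter through the other group alone, so their difference could take only 1 direction. The same holds for such members of the gene lists below. No kept gene was detected in all 9 Flvcr-deleted cells and in no wild-type cell, while 7 were detected in all 6 wild-type cells and in no Flvcr-deleted cell.

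Globin genes had the highest differences of all. Hbb-b1, an adult beta globin, had log2 levels of 4.32 to 17.65 (median 15.52) in Flvcr-deleted cells and 0.54 to 4.94 (median 1.01) in wild-type cells. The groups overlapped only through DA9a, whose level of 4.32 lay below the 4.94 of WA4. The difference was 11.71 (mean 13.68 ± 4.30 in Flvcr-deleted and 1.97 ± 1.86 in wild-type cells, SD, n = 9 and 6 cells). Hba-a1, an adult alpha globin, had 4.58 to 18.22 (median 16.33) in Flvcr-deleted and 0.72 to 8.39 (median 4.33) in wild-type cells, a difference of 8.39. All 6 adult globin genes were higher, with a median difference of 11.71, but Hbb-b1, Hbb-b2, Hbb-bs and Hbb-bt, and likewise Hba-a1 and Hba-a2, can share reads and are not independent.

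Embryonic globin transcripts were also present. Of 3 listed, 2 were kept, and the other was at 0 in all 15 cells. Hbb-bh1, which codes for a beta-type globin of the embryo, was detected in 6 of 9 Flvcr-deleted cells (66.7%), at 5.65 to 9.12 where detected, and in 0 of 6 wild-type cells (up to 45.9%), a difference of 5.28. The 6 cells were the globin-rich ones, and whether reads of adult globins were assigned to Hbb-bh1 was not tested. Hba-x, an embryonic alpha-type globin, was detected in 4 of 9 Flvcr-deleted cells against 0 of 6 wild-type cells, a difference of 1.86. In class B, the next Ter119 class, Hbb-bh1 was detected in 13 of 16 Flvcr-deleted cells against 9 of 10 wild-type cells.

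Genes of heme synthesis were mostly higher. Of 13 listed, 9 were kept, of which 7 were higher and 1 lower, with a median difference of 2.36. Of the 13, 5 were at 0 in all 6 wild-type cells, and such members, if kept, could only come out higher. Over all kept genes 10.8% were higher. Alas2, the erythroid enzyme of the first step, had levels of 6.77, 0, 9.04, 0.54, 8.08, 7.18, 0, 0 and 0 in DA1a to DA9a and 0 in all 6 wild-type cells. Detection was thus in 4 of 9 Flvcr-deleted cells (44.4%), and DA2a and DA7a, both globin-rich, had none. The difference was 3.51. Cpox, which makes protoporphyrinogen, was detected in 8 of 9 and 1 of 6 cells, at 0.49 to 8.18 (median 5.83) in Flvcr-deleted and 0 to 3.82 (median 0) in wild-type cells, a difference of 4.34. Its single wild-type cell was WA6.

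The later and accompanying steps went the same way with unlike detection. Ppox, the enzyme after Cpox, was detected in 5 of 9 Flvcr-deleted cells against 0 of 6 wild-type cells, a difference of 3.95. Tmem14c, a mitochondrial porphyrin transporter, differed by 2.36 and Slc25a38, a mitochondrial glycine carrier, by 2.16. Uros, uroporphyrinogen III synthase, differed by -1.14 and was detected in 2 of 9 and 2 of 6 cells. With the suffix d cells added, the list's median difference was 0.85.

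Red cell membrane genes followed the globins. Of 23 listed genes of membrane and skeleton 12 were kept, of which 8 were higher and none lower, with a median difference of 2.04. Of the 23, 5 were at 0 in all 6 wild-type cells and could, if kept, only come out higher. The share of higher genes over all kept genes was 10.8%. Rhag, the Rh-associated ammonium channel, had 0 to 9.58 (median 7.41) in Flvcr-deleted cells and 0 to 2.66 (median 0) in wild-type cells. Its highest wild-type level, 2.66, was in WA6, and only DA4a and DA9a among Flvcr-deleted cells lay below it. The difference was 5.77. Rhd had 0 to 9.71 (median 5.91) in Flvcr-deleted and 0 to 7.23 (median 0) in wild-type cells, a difference of 3.77.

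Several other genes of the lineage were among those with the largest positive differences. Prdx2, a peroxiredoxin abundant in red cells, was detected in 9 of 9 Flvcr-deleted cells at 8.21 to 11.80 (median 10.72), against 0 to 9.20 (median 4.77) in wild-type cells, a difference of 6.11. The highest wild-type cell was WA6. Car2 had 0.78 to 11.66 (median 10.40) in Flvcr-deleted cells and 0 to 11.65 (median 0.10) in wild-type cells, where WA6 alone exceeded 1.48. Its difference was 6.75, and it was 5.16 for Ctse (cathepsin E), 5.06 for Glrx5, a glutaredoxin of iron-sulfur cluster assembly that heme synthesis needs, and 4.45 for Cldn13, a claudin. WA6 had 6.55 for Ctse and 6.72 for Cldn13, and no other wild-type cell had more than 0.52 of either.

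Erythroid transcription factors were mixed. Of 14 listed 9 were kept, of which 5 were higher and 2 lower, with a median difference of 1.21. That median was 0.63 without WA2 and 1.73 without WA6. Of the 14, 3 were at 0 in all 6 wild-type cells and could, if kept, only come out higher. All kept genes together had 10.8% higher and 53.7% lower. Tal1, a factor of early and late erythroid cells, had 0.14 to 6.94 (median 5.41) in Flvcr-deleted and 0 to 2.86 (median 0) in wild-type cells, a difference of 3.49. Klf1 had levels of 0, 6.42, 4.57, 0, 0.94, 7.86, 3.46, 0 and 0 in DA1a to DA9a, against 4.88 in WA6 and 0 in the other wild-type cells, a difference of 1.77. Gata1 was detected in DA1a at 3.48 and DA3a at 6.05 and in no other Flvcr-deleted cell, and in wild-type cells WA3 at 6.11 and WA6 at 6.41. The Gata1 difference was -1.08, and it was -0.23 without WA6 and -1.70 without DA3a. The Klf1 difference ran from 1.11 without DA6a to 2.58 without WA6. Gfi1b, a repressor of the erythroid and megakaryocyte lineages, differed by -1.66.

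Gata1 was therefore undetected in 4 of the globin-rich Flvcr-deleted cells, DA2a, DA5a, DA6a and DA7a. In class B the gene was detected in 7 of 16 Flvcr-deleted cells at a mean of 2.06 ± 2.86 and in 10 of 10 wild-type cells at 6.88 ± 1.21 (SD over cells). In class A the means were 1.06 ± 2.20 in Flvcr-deleted and 2.14 ± 3.20 in wild-type cells. At these depths an undetected transcript in a single cell is not shown to be absent.

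Genes of early progenitors were mixed. Of 11 listed 7 were kept, with the carbonic anhydrases Car1 and Car2 higher, 4 lower and Tfrc neither, and a median difference of -2.60. Over all kept genes 53.7% were lower. Gata2, a factor of progenitors and mast cells, was detected in 1 of 9 Flvcr-deleted cells, DA9a at 4.24, and in 4 of 6 wild-type cells, at 7.5, 7.00, 9.23 and 4.51 in WA1, WA3, WA5 and WA6. Its difference was -4.18. Npm1 and Ncl, nucleolar proteins of growing cells, differed by -3.90 and -2.60. Among late erythroblast genes 5 of 11 kept of 20 listed were higher and 4 lower (median 0.98, and 0.41 without DA5a), led by Car2 and Prdx2 and, below 0, by Cat, catalase, at -3.33.

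Iron genes differed little as a group, with 2 of 9 kept of 16 listed higher and 3 lower (median 0.38, from -0.41 without DA6a to 0.53 without DA3a). Counts in this paragraph stand against 10.8% higher and 53.7% lower over all kept genes. Tfrc, the transferrin receptor through which precursors take up iron, had 0 to 10.72 (median 5.67) in Flvcr-deleted and 0 to 8.38 (median 4.53) in wild-type cells, a difference of 0.88 that was 0.08 without WA1 and 1.76 without WA2. Fth1, ferritin heavy chain, had 7.52 to 12.02 (median 10.97) in Flvcr-deleted and 6.72 to 10.32 (median 9.25) in wild-type cells, a difference of 1.84 that became -2.65 with the suffix d cells added. Of heme transport, degradation and sensing genes, 3 of 7 kept of 13 listed were higher and 1 lower (median 0.49, from 0.16 without WA4 to 1.21 without WA2). The higher genes were Blvrb, a biliverdin reductase of red cells (2.98), Abcg2, an exporter of porphyrins (2.33), and Hmox2, a constitutive heme oxygenase (1.78, and 0.87 without DA3a). Without WA5 the Blvrb difference was 1.97. Hmox1, the heme-induced heme oxygenase, was at 0 in all 15 cells.

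Targets of erythropoietin signalling were detected in some Flvcr-deleted cells. Erythropoietin acts through JAK2 and STAT5, which induce Cish, a feedback inhibitor, and Fam132b, which codes for erythroferrone, a hormone that mobilizes iron. Cish was detected in DA2a at 6.11, DA5a at 6.38 and DA7a at 4.68, so in 3 of 9 Flvcr-deleted cells (33.3%), and in 0 of 6 wild-type cells (up to 45.9%). The difference was 1.91. Fam132b was detected in DA1a at 6.38, DA2a at 5.97, DA5a at 7.21 and DA7a at 8.03, and in WA6 at 1.02, a difference of 2.94. All these Flvcr-deleted cells were globin-rich. Of the 14 listed genes of this signalling 5 were kept, with 2 higher and 1 lower, Jak2 at -1.98 (-1.28 without WA3), and a median of 0.58 (0.33 without DA2a). All kept genes together had 10.8% higher and 53.7% lower.

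Class B showed Cish in the same genotype. There 6 of 16 Flvcr-deleted cells had it, at a mean of 2.01 ± 3.13, and 0 of 10 wild-type cells did. Fam132b in class B was detected in 3 of 16 Flvcr-deleted cells against 1 of 10 wild-type cells, at means of 0.84 and 0.45.

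Nupr1, Mt1 and Mt2 of the metallothionein and stress lists were found in part of the Flvcr-deleted cells, and Mt1 and Mt2 in WA6. Nupr1, a stress-induced chromatin protein, was at 8.90 in DA2a, 8.27 in DA4a and 7.51 in DA8a and at 0 in every other class A cell of the comparison, a difference of 2.74. Mt1, a metal-binding metallothionein, was detected in 5 of 9 Flvcr-deleted cells at 1.52 to 10.81 and in WA6 at 7.60, a difference of 3.32. Mt2, its relative, was detected in 6 of 9 at 6.59 to 10.22 and in WA6 at 5.41, a difference of 4.62. The cells with Nupr1 all had Mt1 above 9. In class B, Nupr1 was detected in 8 of 16 Flvcr-deleted cells (mean 2.56) against 0 of 10 wild-type cells, and Mt1 in 9 of 16 and 4 of 10.

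**Figure D2:**
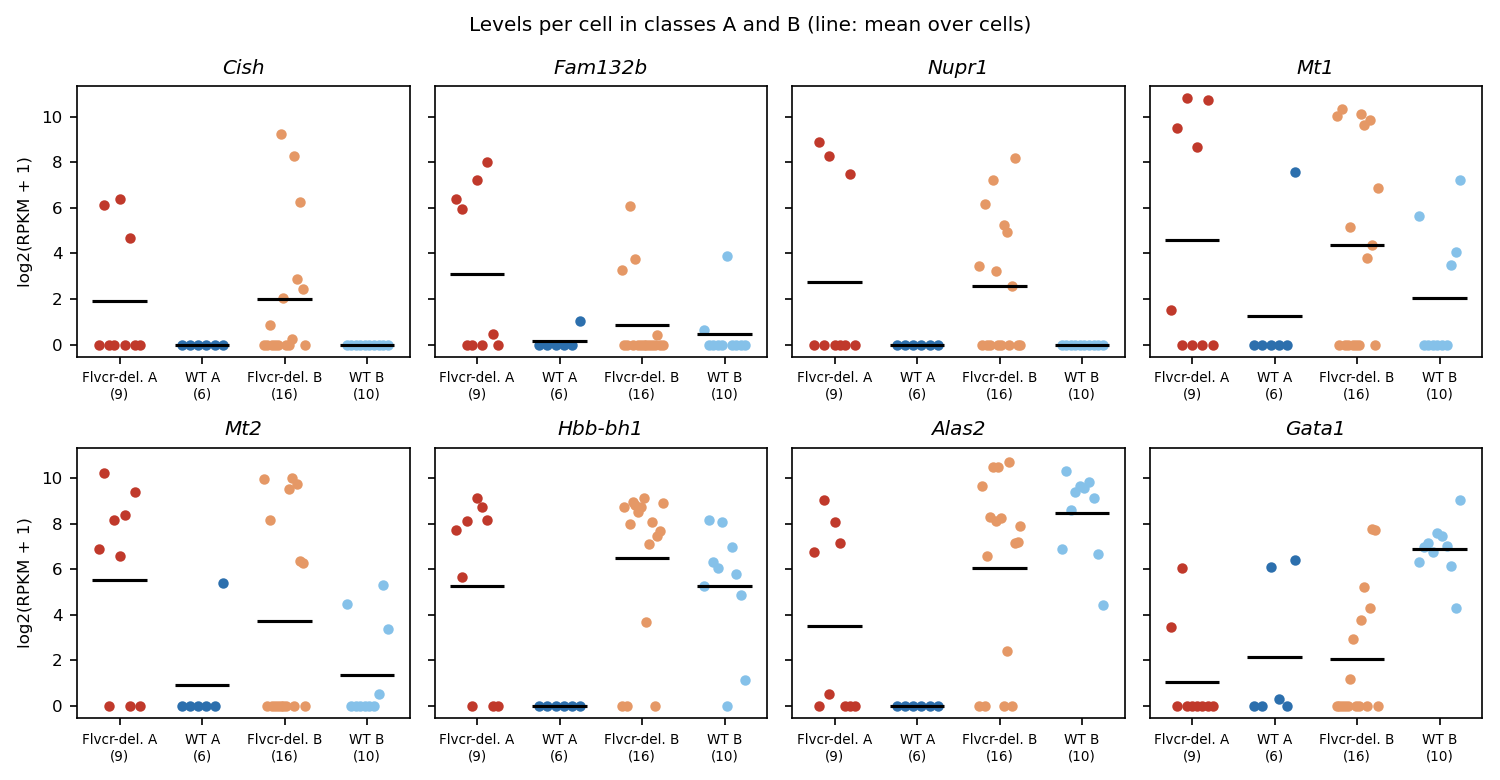
Log2(RPKM + 1) of 8 genes in each cell (points) of class A and class B, Flvcr-deleted left of wild type in each pair, with the mean over cells as a line. Cish and Nupr1 are at 0 in all wild-type cells of both classes, Alas2 and Hbb-bh1 are at 0 in wild-type class A but not in wild-type class B, and Gata1 was detected in 10 of 10 wild-type class B cells.

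The other members of those lists did not move together. Their counts stand against 10.8% higher and 53.7% lower over all kept genes. Of 16 kept metallothionein and antioxidant genes of 17 listed, 7 were higher and 6 lower (median 0.51, from 0.20 without WA4 to 0.89 without WA6). Gclm, which limits glutathione synthesis, differed by 2.64 and Gpx1, a glutathione peroxidase, by 1.99. Prdx5, a mitochondrial and peroxisomal peroxiredoxin, was below an RPKM of 1 in all 9 Flvcr-deleted cells and at 3.30 to 6.88 (median 6.30) in wild-type cells, a difference of -5.80. Of 9 kept integrated stress response genes of 13 listed, 3 were higher and 2 lower (median 0.49, from 0.21 without WA1 to 0.98 without WA6). Herpud1, a gene of the unfolded protein response, had 0 to 8.77 (median 0) in Flvcr-deleted and 5.65 to 9.05 (median 7.52) in wild-type cells, a difference of -5.30.

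Ribosomal protein genes were the largest group of higher genes under the values as deposited. Of 78 listed all were kept, 42 were higher and none lower by at least 1, with a median difference of 1.13. With every cell scaled to the same sum of RPKM, globins included, the median was -0.075. With the globins left out of that sum the sign of the median did not turn. Among all kept genes 10.8% were higher. Set against the median gene, 72 of the 78 lay at least 1 above it, against 29.2% of all kept genes. Rps29 had 9.77 to 11.78 (median 11.05) in Flvcr-deleted and 7.63 to 9.61 (median 8.94) in wild-type cells, a difference of 2.26. Rpl37 had 8.54 to 10.47 (median 9.58) in Flvcr-deleted and 6.27 to 8.39 (median 7.73) in wild-type cells, a difference of 1.99. Rpl4 and Rpl15 lay at -0.97 and -0.72. Processed pseudogenes of this family can take up reads, so single members are uncertain.

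The share that ribosomal proteins took of RPKM was also taken with the globins left out. It was 42.2, 44.2, 45.9, 33.0, 35.3, 38.0, 15.8, 37.0 and 42.2% in DA1a to DA9a and 10.0, 16.2, 8.49, 18.2, 11.2 and 19.2% in WA1 to WA6. The groups overlapped only through DA7a, the Flvcr-deleted cell with the fewest detected genes. DA9a, which carried basophil genes, had 42.2%, and WA6, which carried erythroid genes, had 19.2%. In class B the share was 10 to 48.2% (median 31.9%) in Flvcr-deleted and 4.37 to 21.7% (median 15.7%) in wild-type cells. Depth also differed between the groups of class A, and its part in the result was not tested.

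**Figure D3:**
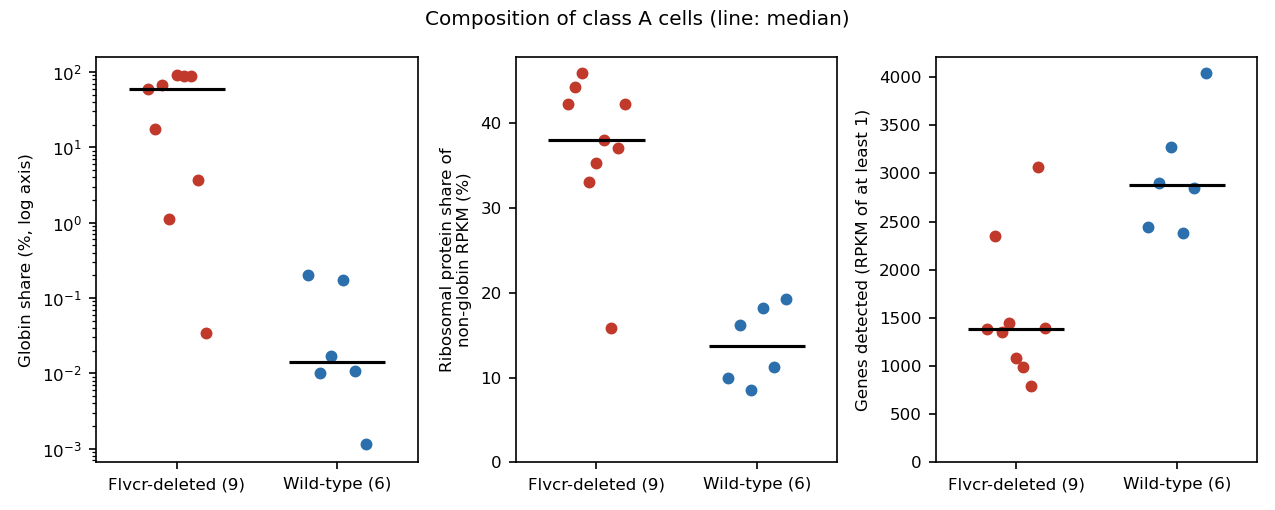
Globin share of summed RPKM (log axis), ribosomal protein share of RPKM outside the globins, and detected genes, for each class A cell (points) with the median as a line, Flvcr-deleted left and wild type right. The median ribosomal share was 38% in Flvcr-deleted and 13.7% in wild-type cells, and the median number of detected genes was 1381 and 2878.

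Granule and leukocyte genes were lower. Of 10 primary granule genes 6 were kept and all 6 were lower, with a median difference of -3.58. Mpo was detected in DA9a alone among Flvcr-deleted cells, at 8.38, and in WA1, WA3 and WA5, a difference of -4.46. Ctsg, cathepsin G of granules, differed by -3.80 and Ms4a3, a gene of granulocyte and basophil precursors, by -3.78, with the same cells detected. Prss34 differed by -7.74 and Mcpt8 by -5.80. All 6 kept eosinophil, basophil and mast cell markers were lower (median -4.05), as were all 4 kept monocyte markers (median -2.94) and 3 of 5 kept granulocyte markers (median -3.78). Over all kept genes 53.7% were lower. Of the 14 and 24 members of the first 2 lists, 10 and 22 were at 0 in all 9 Flvcr-deleted cells. Such members could be kept only through wild-type cells and could then only come out lower, so these counts and medians do not test the lists. The log2 of the summed RPKM of the eosinophil, basophil and mast cell list was 0 to 11.02 (median 0) in Flvcr-deleted and 0 to 16.86 (median 7.97) in wild-type cells, and that of the monocyte list was 0 to 6.92 (median 0) and 0.12 to 11.00 (median 8.99). S100a8, a neutrophil protein, was at 0 in all 15 cells, and Spi1, the myeloid factor PU.1, reached only 0.46, in WA1.

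General leukocyte genes showed the same split. Of 28 listed surface receptors and adaptors 15 were kept, of which 13 were lower and none higher (median -3.60). Over all kept genes 53.7% were lower. Of the 28, 17 were at 0 in all 9 Flvcr-deleted cells, and such members, if kept, could only come out lower. Ptprc was at 0 in all 9 Flvcr-deleted cells and was detected in 5 of 6 wild-type cells at 2.48 to 8.03, a difference of -3.60. Tyrobp, an adaptor of myeloid receptors, was at 9.48 in DA9a and 0 in the other Flvcr-deleted cells, and at 8.92 to 10.24 in wild-type cells other than WA6, where it was 0, a difference of -6.92. Plac8, a gene of myeloid progenitors, had the same pattern and difference, and Coro1a, a coronin of leukocytes, was at 0 in all Flvcr-deleted cells and in WA6, a difference of -6.88. These genes followed the basophil, mast cell and monocyte markers from cell to cell, and the part of those markers in the differences was not tested.

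Some leukocyte genes were present in WA6 as well. Cyba, a subunit of the phagocyte oxidase, had 0 to 3.47 (median 0) in Flvcr-deleted cells and 4.58 to 9.13 (median 6.67) in wild-type cells, without overlap, and 6.52 in WA6. The difference was -6.39. Laptm5, a lysosomal protein of blood cells, had 0 to 3.01 (median 0) in Flvcr-deleted and 4.51 to 9.57 (median 6.56) in wild-type cells, with 5.55 in WA6, a difference of -6.32. Rac2, a small GTPase of blood cells, differed by -5.62 and had 4.08 in WA6. In class B wild-type cells Cyba was detected in 0 of 10 and Laptm5 in 0 of 10, the next class by Ter119. Wild-type cells of classes C and D were not examined for them.

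Genes of myeloid effector programs outside the granules are read against the 53.7% of all kept genes that were lower. All 6 kept S100 and annexin genes of 13 listed were lower (median -4.34), among them Anxa2, a membrane-binding annexin, at -6.06 and S100a11, a calcium-binding protein, at -5.81. All 3 kept phagocyte oxidase genes of 6 were lower (median -5.62). Of 12 myeloid transcription factors 2 were kept and both were lower, Klf6 at -4.95 and Runx1 at -1.23 (-0.80 without WA6). Of 18 secondary and tertiary granule genes Pglyrp1 alone was kept, at -2.91. Of 12 kept lysosome genes of 18 listed, 8 were lower and none higher (median -2.01), a share not far above that over all kept genes, with Ctsa at -3.67 and Cd63 at -3.63. Of the interferon response genes 5 of 6 kept of 13 listed were lower and 1 higher (median -2.59). All 6 kept inflammatory and immediate early genes of 20 were lower (median -1.93, and -1.07 without WA5), Nfkbia, the inhibitor of NF-kB, most (-4.51). Members at 0 in all 9 Flvcr-deleted cells were 6 S100 and annexin, 4 oxidase, 11 transcription factor and 17 secondary and tertiary granule genes. They were also 6 lysosome, 6 interferon and 10 inflammatory genes. Such members could be kept only through wild-type cells and could then only come out lower, so these counts and medians do not test the lists.

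An antigen presentation gene, H2-L, had the lowest difference of all kept genes. The class I heavy chains bind peptides at the cell surface with beta-2 microglobulin, coded by B2m. Of 12 listed genes 9 were kept and all 9 were lower (median -4.72), 5 of them without overlap of the groups. The shares over all kept genes were 53.7% lower and 1.19% lower without overlap. H2-L was at 0, 1.75, 0, 0, 0, 0, 0, 5.51 and 3.16 in DA1a to DA9a, against 9.24, 10.07, 9.39, 8.95, 11.45 and 10.43 in WA1 to WA6. Every wild-type cell lay above every Flvcr-deleted cell, and the difference was -8.76. H2-D1 had 0 to 6.90 (median 3.37) in Flvcr-deleted and 8.77 to 11.34 (median 9.63) in wild-type cells, a difference of -6.50. H2 genes resemble each other closely and can share reads, so they count as few independent observations.

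B2m differed less. It was detected in all 15 cells, at 3.43 to 10.73 (median 8.14) in Flvcr-deleted and 8.87 to 9.79 (median 9.16) in wild-type cells, a difference of -1.74. DA9a, at 10.73, was the highest of all. The H2-L level of 10.43 in WA6 was measured in a cell with 0 of 24 monocyte and 0 of 14 basophil and mast cell markers. In class B, H2-L averaged 2.31 ± 2.85 in Flvcr-deleted and 4.78 ± 3.67 in wild-type cells (SD, n = 16 and 10 cells), a smaller gap than in class A, and the difference between the classes was not tested.

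Actin and motility genes were lower without exception among those kept. Of 20 listed 19 were kept and 19 were lower (median -5.21), 3 without overlap. Over all kept genes 53.7% were lower and 1.19% were lower without overlap. Actg1, cytoplasmic gamma actin, was at 10.09 in DA9a, 5.50 in DA8a and at most 0.30 in the other Flvcr-deleted cells, against 7.61 to 10.24 (median 9.55) in wild-type cells. The difference was -7.49, and WA6 had 9.49. Actb, cytoplasmic beta actin, had 0 to 10.35 (median 7.93) in Flvcr-deleted and 9.28 to 10.79 (median 10.39) in wild-type cells, a difference of -3.29. Msn, moesin, which ties actin to the membrane, was at most 0.34 in Flvcr-deleted cells and at 3.49 to 8.85 in wild-type cells, and Arpc1b, a subunit of the Arp2/3 complex, was at 0 in all 9 and at 3.56 to 7.40 in wild-type cells. Lcp1, a leukocyte actin bundler, was at 0 in all 9 and in WA6. In class B, Actg1 averaged 2.20 in Flvcr-deleted and 4.06 in wild-type cells, and Msn 1.03 and 1.48.

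Glycolysis genes were lower as well, 11 of 11 kept of 15 listed (median -4.07), against 53.7% of all kept genes. Pkm, the muscle-type pyruvate kinase, was at 0 in all 9 Flvcr-deleted cells and in WA6 and at 7.34 to 9.61 in the other wild-type cells, a difference of -7.15. Pkm was likewise rare in class B, detected in 0 of 16 Flvcr-deleted against 1 of 10 wild-type cells. Gapdh, a glycolytic enzyme present in most cells, had 0 to 10.34 (median 6.00) in Flvcr-deleted and 7.73 to 9.11 (median 8.32) in wild-type cells, a difference of -2.04. Aldoa, aldolase A, differed by -4.07.

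Genes that most cells express were lower as groups, with medians below that of all kept genes (-1.16). The share of lower genes over all kept genes was 53.7%. Of 36 kept splicing and hnRNP genes of 37, 28 were lower and 1 higher (median -2.10). Hnrnpk, an RNA-binding protein, was detected in DA4a at 7.21 and DA8a at 6.07 and in no other Flvcr-deleted cell, against 4.95 to 8.45 (median 7.60) in wild-type cells, a difference of -5.78. In class B the gene was detected in 7 of 16 Flvcr-deleted against 10 of 10 wild-type cells, at means of 2.17 and 8.18. Translation factors had 21 of 32 lower and 1 higher (median -2.01), with Eef1a1, the main elongation factor, at -3.26. The proteasome list had 21 of 29 kept lower and 1 higher (median -1.51, and -2.37 without WA1), and heat shock and chaperone genes had 11 of 13 kept lower and none higher (median -2.28). Calr, the chaperone calreticulin, had 0 to 7.69 (median 0) in Flvcr-deleted and 5.44 to 10.05 (median 8.10) in wild-type cells, a difference of -6.72. Histone and chromatin genes had 9 of 13 kept lower (median -2.04).

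Respiratory chain genes stayed closer to 0. Of 74 kept oxidative phosphorylation genes of 75, 10 were higher and 25 lower (median -0.48, from -0.91 without DA8a to -0.10 without DA5a). The shares over all kept genes were 10.8% higher and 53.7% lower. Set against the median gene, 27 lay at least 1 above it and 9 at least 1 below, against 29.2% and 28.5% of all kept genes. Cox7c, a subunit of cytochrome oxidase, had 7.28 to 10.43 (median 9.49) in Flvcr-deleted and 5.59 to 7.75 (median 6.73) in wild-type cells, a difference of 2.44.

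Cell cycle genes were split between the lists. Their counts, and those of apoptosis genes, stand against 10.8% higher and 53.7% lower over all kept genes. Of 24 kept DNA replication genes of 26, 18 were lower and 1 higher (median -2.02). Mcm5, a subunit of the replicative helicase, had 0 to 7.68 (median 2.91) in Flvcr-deleted and 4.49 to 7.43 (median 6.24) in wild-type cells, a difference of -3.68, and Mcm3 differed by -4.28. Of 21 kept mitosis and spindle genes of 29, 8 were higher and 4 lower (median 0.05, from -0.47 without DA5a to 0.71 without WA3). Birc5, survivin, had 0 to 9.02 (median 6.54) in Flvcr-deleted and 0 to 5.73 (median 1.77) in wild-type cells, a difference of 3.36. Cenpa, the centromere histone, was detected in 4 of 9 Flvcr-deleted against 0 of 6 wild-type cells, a difference of 2.75. Of 5 kept apoptosis genes of 18, 4 were lower and none higher (median -2.83), among them Bax, a mediator of apoptosis, at -3.61.

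**Figure D4:**
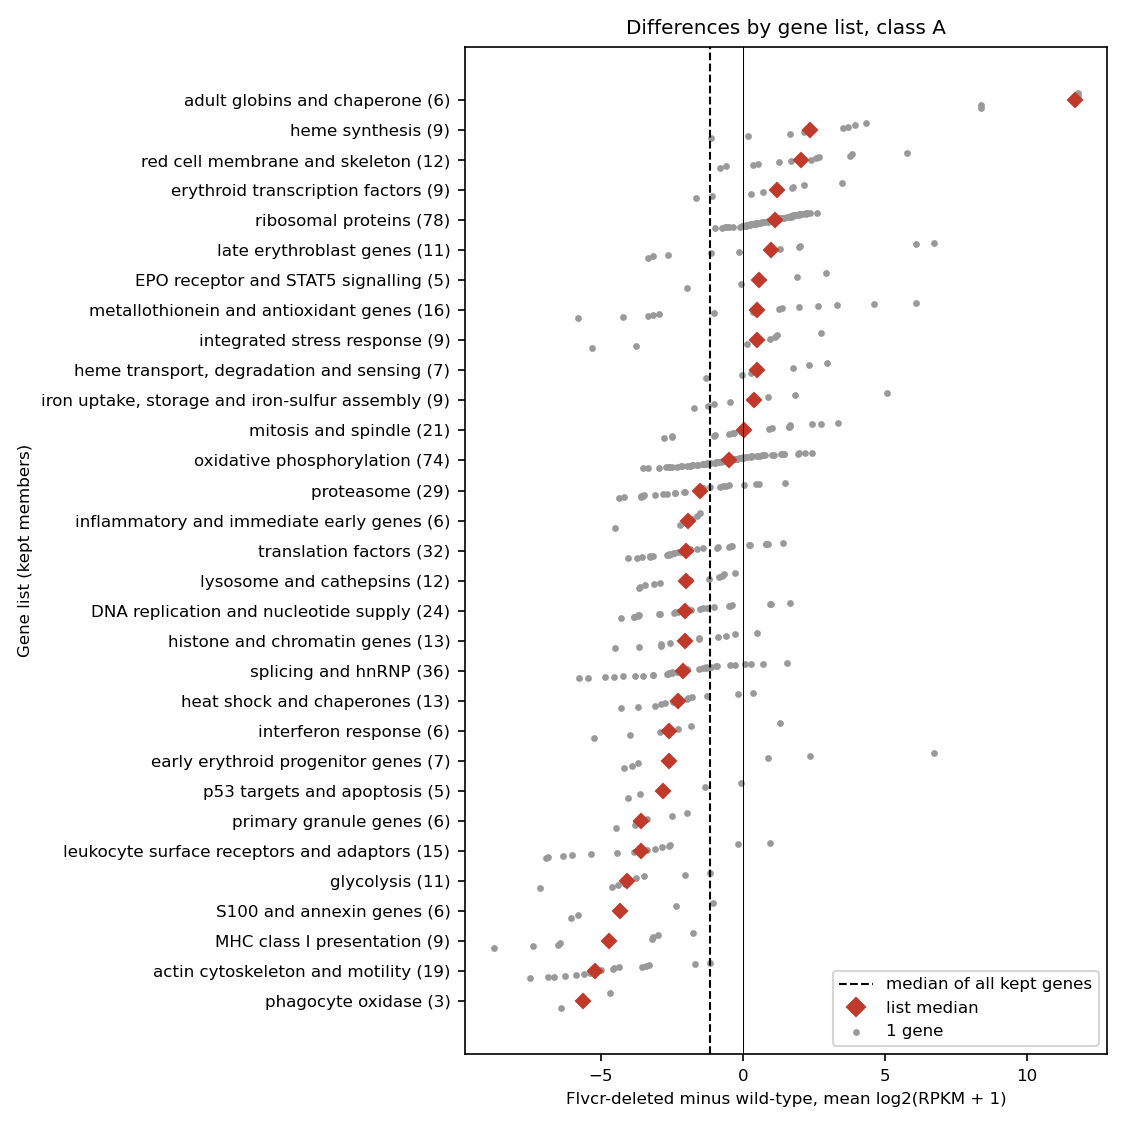
Difference of mean log2(RPKM + 1), Flvcr-deleted minus wild-type cells, for the kept members (grey points) and their median (red) in each gene list with at least 3 kept members. The dashed line is the median of all kept genes at -1.16. Globins stand at 11.71 and phagocyte oxidase at -5.62. Kept members at 0 in all cells of a group could differ in only 1 direction. The ribosomal median of 1.13 becomes -0.075 when every cell is scaled to the same sum, globins included. Its sign did not turn with the globins left out of that sum.

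Set against the median gene, whose own difference moved between -1.94 and -0.28 with the pseudocount and scaling, the groups ordered as follows. At least 1 above it lay 8 of 9 kept heme synthesis genes, 10 of 12 red cell membrane genes and 13 of 21 mitosis genes. At least 1 below it lay 17 of 19 actin genes, 13 of 15 leukocyte receptors, 8 of 9 class I genes and 9 of 11 glycolysis genes. Those shares stand against 29.2% above and 28.5% below over all kept genes. Kept members at 0 in all cells of a group could fall on only 1 side of the median gene. Closer to these backgrounds were splicing genes, with 4 above and 17 below of 36, translation factors, with 6 and 14 of 32, proteasome genes, with 4 and 11 of 29, and DNA replication genes, with 3 and 11 of 24.

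Erythroid genes that wild-type class A lacked were present in wild-type class B. Alas2 was at 0 in all wild-type class A cells and detected in 10 of 10 wild-type class B cells at a mean of 8.46 ± 1.86, while in Flvcr-deleted cells it averaged 3.51 ± 4.09 in class A and 6.08 ± 4.12 in class B (12 of 16). Hbb-b1 averaged 13.68 in class A and 15.29 in class B of Flvcr-deleted cells, and 1.97 and 15.09 in wild-type cells. Between genotypes Alas2 was therefore higher by 3.51 in class A, with the order of the means turned round in class B. Klf1 averaged 2.58 and 0.81 in Flvcr-deleted and wild-type class A cells, and 4.03 and 6.07 in class B. Whether the genotype difference itself differs between the classes was not tested.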

How the data were processed

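Single mouse marrow cells were captured with the C1 system, imaged for Ter119, and their cDNA, amplified by the SMART-Seq method, was used for Nextera XT libraries, as the labels' protocols say. The values are RPKM, deposited by the authors as a table with a row per RefSeq transcript. The submitters' processing notes name TopHat2 2.0.9 and the build mm9. How reads were counted, how multiple matches were handled and whether cells were filtered is not given in the sources used here. Of the columns, 4 belong to no sample and were not used.

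A gene was 1 symbol, by its row with the highest mean RPKM. Means of log2(RPKM + 1) were compared over cells with a filter of a mean of at least 1 and a call size of 1. With no animal named, each group was 1 sample and no test was run. Depth was estimated from the smallest step of RPKM times transcript length, with lengths from GENCODE vM21 (97.6% of rows matched), which is another build than mm9, so depth is approximate. Doublets were not called. Python 3.11.15, numpy 2.4.6, pandas 2.3.3, scipy 1.17.1 and matplotlib 3.10.9 were used, and the scripts were tested on simulated data.

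The members and the 44 gene lists were chosen with earlier results of these data known. Named genes were the 15 highest and 15 lowest differences, in each list the 4 members farthest from 0, and a fixed set of 15 genes; the text names part of these and, as examples, further list members chosen after their values were seen. Of the 158 genes of this rule, 123 had a promoter in the RefSeq table. Alternatives were other pseudocounts, filters, scalings and summaries, the suffix d cells, a cell filter and leaving out each cell. Some genes of the rule are not reported here.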

Additional observations from a re-analysis of the deposited data

Results flagged for a closer look

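In 168 groups of cells, each a measure in the Flvcr-deleted or the wild-type cells of class A, the gap between the most extreme cell and its nearest neighbour was set against the range of the group. It passed Dixon's 95% critical value in 42. A chance rate of about 1 in 20 assumes normally distributed values and separate groups. Where every other cell of a group lacked a transcript, any level in the remaining cell passed, as 0.46 for Spi1 in WA1 did. Groups also shared cells and genes. The count of 42 therefore cannot be set against chance, and the flags only describe which cells were extreme. Levels are log2(RPKM + 1), and list levels are means over members.

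DA9a was the extreme Flvcr-deleted cell for primary granule genes (4.99, next 0.80), S100 and annexin genes (2.45, next 0.92), phagocyte oxidase (1.21, next 0), leukocyte receptors (1.31, next 0.36), inflammatory and immediate early genes (1.78, next 0.34), and granulocyte (1.74), monocyte (0.46) and eosinophil, basophil and mast cell markers (1.62). Among genes it was extreme for Plac8 (12.12), Lgals1 (9.82), Tyrobp (9.48), Cst3 (8.81), Mpo (8.38) and Kit (0.87), each with 0 in the next cell, and at the low end for Car2 (0.78, next 6.35) and 1190002F15Rik (0, next 5.25).

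WA6 was the extreme wild-type cell for red cell membrane genes (2.71, next 1.09), early erythroid progenitor genes (6.97, next 3.34), iron genes (4.14, next 2.55) and oxidative phosphorylation (6.74, next 5.00). It was extreme for Car2 (11.65), Cldn13 (6.72), Ctse (6.55), Mt2 (5.41), Klf1 (4.88) and Rhag (2.66). It was at 0 for Coro1a, Lcp1, Pkm, Plac8 and Tyrobp, whose next lowest levels were 7.26, 6.12, 7.34, 9.01 and 8.92.

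WA2 was extreme for monocyte and macrophage markers (3.25, next 1.12), interferon response (3.60, next 2.49), Lyz2 (8.43) and Csf1r (6.10). Among the remaining Flvcr-deleted cells, DA7a had the lowest ribosomal share outside the globins (15.8%, next 33.0%), DA8a was extreme for apoptosis genes (1.26, next 0.59), H2-Q6 (2.22) and H2-Q8 (2.18), and DA6a for Calr (7.69, next 2.52). Among wild-type cells, WA5 was extreme for Mfsd7b (1.62) and WA1 for Spi1 (0.46).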

How the results depend on the processing

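No paired analysis was possible because the result comes from no test and the numbers in the class labels only name cells. Counts are given as higher and lower by at least 1 in Flvcr-deleted cells, against 346 and 1714. With a pseudocount of 0.1 they were 418 and 2061 and with 10 they were 190 and 895. Without a filter they were 439 and 2865, and with a mean of at least 3 they were 152 and 378. With every cell scaled to 1 sum they were 200 and 2096, so that higher genes made up 8.71% of called genes against 16.8% as deposited. With the globins left out of that sum they were 370 and 1696 (17.9%). With quantile normalization they were 724 and 1077 (40.2%), and with the suffix d cells added they were 77 and 2322 (3.21%). Leaving out each cell gave 303 (without DA8a) to 457 (without WA6) higher and 1519 (without WA6) to 1852 (without DA8a) lower.

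The median gene, at -1.16, was at -1.94 with a pseudocount of 0.1, -0.47 with 10, -0.28 with quantile normalization, -1.73 with 1 sum and -1.94 with the suffix d cells, and at -1.34 to -0.90 with each cell left out. The MHC class I median of -4.72 was -7.27 and -2.41 with pseudocounts of 0.1 and 10, -3.20 without a filter, -3.97 with a mean of at least 3, -5.58 with 1 sum, -6.27 by medians over cells, -5.50 with the suffix d cells and -5.71 to -4.18 with each cell left out. Actin was at -7.13 and -2.75 with the 2 pseudocounts, red cell membrane at 3.57 with 0.1, and heme synthesis at 0.85 with the suffix d cells.

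The sign turned round for ribosomal proteins with 1 sum (-0.075) and with the suffix d cells (-2.79), and for Pcbp2 with quantile normalization (0.86). For ribosomal proteins it did not turn with 1 sum that left the globins out. It also turned for granulocyte markers with a mean of at least 3 (0.97), but that is the difference of Cxcr2 alone, as no other marker of the list passed. With the suffix d cells it also turned round for erythroid transcription factors (-0.0854) and for Blvrb (-0.10), Fth1 (-2.65), Rpl28 (-1.74), Rps26 (-2.25), Rps27l (-1.09), Rps29 (-1.67) and Xbp1 (-0.26). The cause was not tested, though the suffix d cells had a median of 343 detected genes. Leaving out a cell also turned the sign of the iron median (-0.41 without DA6a to 0.53 without DA3a) and of the mitosis median (-0.47 without DA5a to 0.71 without WA3). Single cells limit precision throughout.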
